A study of Mus musculus with 6 samples.

Results

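A set of 8 genes that carry out, amplify or damp the Notch signal inside the cell were followed in blood-forming cells of the mouse embryo. They were chosen by name, with earlier results of these data known. They are Hes1, Hey1, Hey2, Heyl, Nrarp, Rbpj, Lfng and Maml1, and all 8 were found among 47517 gene symbols. The cells came from C57BL/6 embryos at embryonic day 10.5 that carried a tdTomato reporter knocked into the locus of Hlf, a transcription factor gene of blood stem and progenitor cells. Cells of both groups had been sorted as positive for the reporter and for c-Kit and negative for CD45. Libraries of 100 cells each were made from the caudal-half region (called caudal cells here, n = 3) and from the yolk sac (n = 3). Both groups carry the knock-in allele, so no cells without it were compared, and the reporter limits the sample to cells that express Hlf.

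When a Notch ligand on a neighbouring cell binds the receptor, proteases release the intracellular part of the receptor, which enters the nucleus. There it joins the DNA-binding protein encoded by Rbpj and a coactivator of the Mastermind family, of which Maml1 is one, and genes such as Hes1, Hey1, Hey2, Heyl and Nrarp are transcribed. The Hes and Hey proteins are basic helix-loop-helix repressors, Nrarp is a feedback inhibitor that binds the receptor complex, and Lfng encodes a glycosyltransferase that adds sugar to the receptor and so changes its response to different ligands. Notch signalling is known for its part in arterial identity and in the emergence of blood stem cells from the arterial wall of the embryo.

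Values are TPM, an expression unit corrected for the length of the gene, as the authors deposited them. Each library had 15644 to 16975 genes at 1 TPM or more. TPM keeps no depth, so depth is unknown and a value of 0 has no upper limit. The labels do not say if replicates were separate embryos, separate pools or one pool, and p-values then measure only the spread between these libraries, which may be technical. The sorting markers were present as transcripts, with group means of 34.78 TPM (caudal) and 14.62 TPM (yolk sac) for Hlf and 123.3 and 77.65 TPM for Kit, while Ptprc, which encodes CD45, was at 3.87 and 3.04 TPM. Yolk sac replicate 2 stood apart from the rest. Its log2 values correlated across genes with the other libraries at 0.881 to 0.916, against 0.944 to 0.968 among the other 5. The 15 markers of yolk sac endoderm summed to 13332.3 TPM in that library, to 753.3 TPM in yolk sac replicate 1 and to 13.62 to 31.29 TPM in the other 4.

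Promoters are shown because the Notch signal acts on its target genes through binding of the Rbpj protein to DNA. RefSeq promoter windows (GRCm38.p6, 250 bases before to 50 bases after a start site) were matched for 5 of the 8 genes, which were Hey2, Nrarp, Rbpj, Lfng and Maml1. No window was matched for the targets Hes1, Hey1 and Heyl. The search used the letters TGGGAA, the core of the sequence that Rbpj binds, on both strands (TTCCCA on the other). Capitals mark each match, and the windows of Hey2 (chr10:30842734-30843033, minus strand), Lfng (chr5:140607091-140607390, plus strand), Rbpj (chr5:53590096-53590395, plus strand, the first of 2 listed start sites) and Nrarp (chr2:25180508-25180807, plus strand) read 5′ to 3′ as follows.
Hey2: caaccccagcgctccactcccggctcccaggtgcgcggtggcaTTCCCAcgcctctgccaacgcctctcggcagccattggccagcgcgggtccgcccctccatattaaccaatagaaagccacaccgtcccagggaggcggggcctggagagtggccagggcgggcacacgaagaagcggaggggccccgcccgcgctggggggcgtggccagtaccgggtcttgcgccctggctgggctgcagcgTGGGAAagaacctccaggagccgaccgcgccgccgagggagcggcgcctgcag
Lfng: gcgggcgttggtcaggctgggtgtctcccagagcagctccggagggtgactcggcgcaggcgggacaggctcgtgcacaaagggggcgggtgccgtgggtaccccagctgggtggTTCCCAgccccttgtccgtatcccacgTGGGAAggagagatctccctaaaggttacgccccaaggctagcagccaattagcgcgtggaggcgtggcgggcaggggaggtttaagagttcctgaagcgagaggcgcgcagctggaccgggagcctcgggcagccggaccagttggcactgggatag
Rbpj: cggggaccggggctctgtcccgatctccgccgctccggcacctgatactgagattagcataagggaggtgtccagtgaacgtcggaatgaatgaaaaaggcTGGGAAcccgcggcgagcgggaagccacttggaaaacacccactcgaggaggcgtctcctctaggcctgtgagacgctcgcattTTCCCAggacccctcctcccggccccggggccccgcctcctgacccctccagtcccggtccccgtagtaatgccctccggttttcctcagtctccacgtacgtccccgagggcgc
Nrarp: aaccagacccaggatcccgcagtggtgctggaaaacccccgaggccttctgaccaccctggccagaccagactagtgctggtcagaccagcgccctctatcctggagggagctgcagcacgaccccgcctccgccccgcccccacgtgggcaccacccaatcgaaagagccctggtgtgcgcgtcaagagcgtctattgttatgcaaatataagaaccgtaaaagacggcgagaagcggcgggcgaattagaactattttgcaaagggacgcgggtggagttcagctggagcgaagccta
The Hey2 window held 2 matches, beginning 207 and 3 bases before the start site on opposite strands. Both were part of the longer run GTGGGAA, the second on the strand of the gene and the first on the other. The Lfng window also held 2 matches, 135 and 108 bases before the start, and its second match was part of GTGGGAA and overlapped the palindrome CACGTG. The first Rbpj window held 2 matches, 149 and 65 bases before the start. The Nrarp window had no TGGGAA in these letters but held CACGTG 108 bases before the start, and the Maml1 window had neither. Over all 32851 windows of this length, 25.6% held TGGGAA, 6.38% held GTGGGAA and 7.15% held CACGTG. A match is a description of the letters and not a measured site.

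Hey1 was the one member that passed the test across all genes. It was at 9.03, 7.24 and 7.47 TPM in caudal replicates 1, 2 and 3 and at 0.83, 0.22 and 0.38 TPM in the yolk sac replicates. The lowest caudal library thus lay far above the highest yolk sac library. No yolk sac library reached 1 TPM, so Hey1 entered the test through the caudal libraries alone, where it was high. Caudal cells had a mean of 7.91 TPM ± 0.98 (SD, n = 3) and yolk sac cells one of 0.48 TPM ± 0.31 (SD, n = 3). On the log2(TPM + 1) scale the difference, caudal minus yolk sac, was 2.61 (SE 0.25, 95% interval 2.05 to 3.17), which is 6.11-fold on that scale (limma with Benjamini-Hochberg adjustment over 16436 genes, adjusted p = 0.0114). Exactly the value of Hey1 was also listed for an assembled locus without coordinates in each of the 3 caudal libraries and in 0 yolk sac libraries. Whether this was 1 locus, or that of Hey1, was not tested. Such matches were common, at 30.5% to 33.1% of annotated rows of 1 TPM or more per library, and Nrarp had one in all 6 libraries. By p-value Hey1 ranked 6 among all genes tested. With no filter on level its limma adjusted p was 0.138. The exact two-sided permutation p was 0.1, the smallest that 3 against 3 libraries allow. Without caudal replicate 1 or caudal replicate 3 the limma adjusted p was 0.0675 and 0.055, while the difference stayed between 2.48 and 2.78 whichever library was left out. Without yolk sac replicate 2 the difference of Hey1 was 2.48 (limma adjusted p = 0.0154), and with yolk sac replicates 1 and 2 both left out it was 2.69 (adjusted p = 0.0507).

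**Figure D1:**
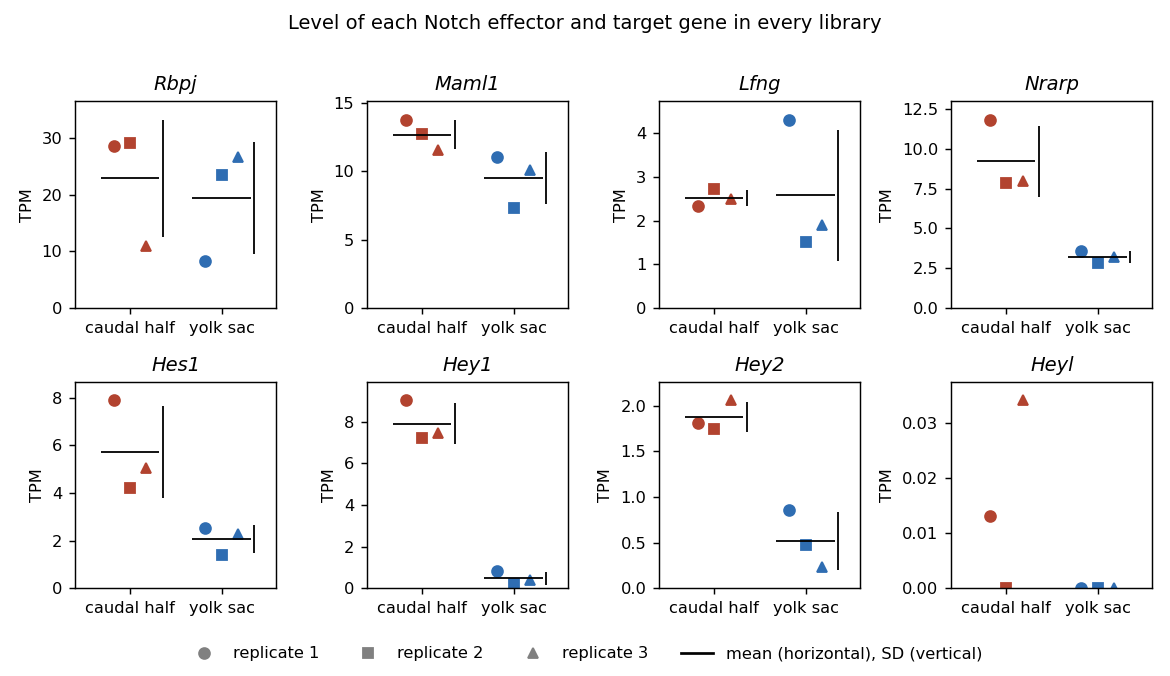
TPM (vertical axes, linear from 0, scaled separately per gene) of the 8 genes in the 3 caudal (red) and 3 yolk sac (blue) libraries, with symbols for the replicate, a horizontal line at the mean and a vertical bar for the SD (none for Heyl). Hey1 lies between 7.24 and 9.03 TPM in the caudal cells and between 0.22 and 0.83 TPM in the yolk sac, while the 2 groups of Rbpj and of Lfng overlap.

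Hey2, a close relative of Hey1 and also a repressor with a role in arteries, was well below Hey1 in the caudal cells and at a like level in the yolk sac. It was at 1.81, 1.75 and 2.06 TPM in the caudal replicates and at 0.86, 0.47 and 0.23 TPM in the yolk sac replicates. The groups did not overlap, and the caudal libraries lay close together. The log2 difference was 0.94 (SE 0.23, 95% interval 0.41 to 1.46), which did not pass (limma adjusted p = 0.193). Hey1 and Hey2 entered the test through the caudal libraries alone, because no yolk sac library reached 1 TPM for either. TPM of Hey1 was 5.0, 4.14 and 3.62 times that of Hey2 in the caudal replicates. In the yolk sac replicates it was 0.96, 0.47 and 1.66 times, so that the ratios did not overlap. The yolk sac ratios divide values that were all under 1 TPM, in libraries of unknown depth, so they are uncertain.

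Heyl, the third Hey gene, was at or near 0 throughout. It was listed at 0 in all yolk sac libraries and in caudal replicate 2, and at 0.013 and 0.034 TPM in caudal replicates 1 and 3. It was not tested and has no fold change.

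Hes1, a repressor that many tissues use as a Notch target, was at 7.89, 4.2 and 5.05 TPM in the caudal replicates and at 2.52, 1.42 and 2.28 TPM in the yolk sac replicates. The groups did not overlap, and caudal replicate 1 was the highest. The log2 difference was 1.11 (SE 0.29, 95% interval 0.45 to 1.77), which did not pass (limma adjusted p = 0.23). Of the rest of the Hes family only Hes6 and Bhlhe40 were abundant enough to be tested. Hes6 was at 16.4 against 14.79 TPM (adjusted p = 0.881) and Bhlhe40 at 1.52 against 1.16 TPM (adjusted p = 0.863), group means of caudal and yolk sac cells. The group means of Hes2, Hes3, Hes5, Hes7, Helt and Bhlhe41 were between 0 and 0.25 TPM.

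Nrarp, the feedback inhibitor, was at 11.8, 7.83 and 7.99 TPM in the caudal replicates and at 3.56, 2.85 and 3.23 TPM in the yolk sac replicates. The lowest caudal value exceeded the highest yolk sac value, and the yolk sac libraries were close to one another. The mean was 9.21 TPM ± 2.25 (SD, n = 3) against 3.21 TPM ± 0.35 (SD, n = 3), with a log2 difference of 1.26 (SE 0.24, 95% interval 0.7 to 1.81) that did not pass (limma adjusted p = 0.0907). Exons of Nrarp overlap those of Gm38287, a gene model on the opposite strand, which was listed at 12.38, 8.15 and 8.07 TPM in the caudal replicates and 3.48, 2.85 and 3.31 TPM in the yolk sac replicates. These values follow those of Nrarp library by library. Use of strand is not given in the sources used here, so reads from the 2 genes cannot be told apart.

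Lfng, the glycosyltransferase, did not separate the tissues. It was at 2.34, 2.72 and 2.49 TPM in the caudal replicates and at 4.3, 1.52 and 1.91 TPM in the yolk sac replicates. Yolk sac replicate 1 was above every caudal library and the other yolk sac libraries were below all of them. The log2 difference was 0.05 (SE 0.31), with a 95% interval from -0.65 to 0.76 (limma adjusted p = 0.97), and its sign changed under some settings. Mfng, a relative of Lfng with the same activity, was far more abundant than Lfng in these length-scaled levels, at 55.71 TPM in the caudal cells and 42.75 TPM in the yolk sac (log2 difference 0.44, adjusted p = 0.712). Poglut1, which adds glucose to the receptor, was at 24.99 and 19.69 TPM (adjusted p = 0.785).

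Rbpj and Maml1, the nuclear machinery, were the most abundant members in both tissues. Rbpj was at 28.56, 29.11 and 11.04 TPM in the caudal replicates and at 8.23, 23.49 and 26.62 TPM in the yolk sac replicates. One library of each tissue was thus low, caudal replicate 3 and yolk sac replicate 1, and the groups overlapped. The log2 difference was 0.26 (SE 0.49), with a 95% interval from -0.87 to 1.39 (limma adjusted p = 0.906). A processed pseudogene of Rbpj, Rbpj-ps3 on chromosome 6, was listed at 7.06 to 8.93 TPM over the 6 libraries. It was at 7.77 TPM in caudal replicate 3 and 8.93 TPM in yolk sac replicate 1, where Rbpj itself was low. Where Rbpj was higher, the pseudogene was at 8.84 and 8.79 TPM (caudal replicates 1 and 2) and at 7.33 and 7.06 TPM (yolk sac replicates 2 and 3). Reads shared between Rbpj and this copy could have been split by the counting, so the level of Rbpj is uncertain. The deposited tables also hold assembled loci without coordinates, and whether these took part of the reads of Rbpj or another member was not tested.

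Maml1, the coactivator, was at 13.72, 12.71 and 11.58 TPM in the caudal replicates and at 11.01, 7.34 and 10.11 TPM in the yolk sac replicates. The groups did not overlap, but caudal replicate 3 and yolk sac replicate 1 were close. The log2 difference was 0.4 (SE 0.22), with a 95% interval from -0.11 to 0.9 (limma adjusted p = 0.623). Exons of Maml1 overlap those of Gm26542 on the opposite strand, which was listed at 5.7 to 10.72 TPM in the caudal cells and 3.07 to 7.46 TPM in the yolk sac.

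The 8 members were chosen with earlier results of these data known. Of them, 1 passed toward the caudal cells, 0 passed toward the yolk sac, 6 were tested without passing and 1 was not tested. At an unadjusted p under 0.05, limma had 4 members higher in the caudal cells (Hey1, Nrarp, Hey2 and Hes1) and 0 higher in the yolk sac, beside 7.65% and 1.98% of all genes tested. Among all 16436 genes tested, 0.347% passed with caudal cells higher and 0.0365% with the yolk sac higher. Values did not overlap between tissues, with caudal higher, for 5 of the 8 (Hes1, Hey1, Hey2, Nrarp and Maml1), and this was so for 11.5% of all genes tested. The median difference of all genes tested was 0.09. The differences of Hey1, Nrarp, Hes1 and Hey2 were 0.94 or more, and the 95% intervals of Rbpj, Maml1 and Lfng included 0. That the targets differed more than Rbpj, Maml1 or Lfng was not tested.

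**Figure D2:**
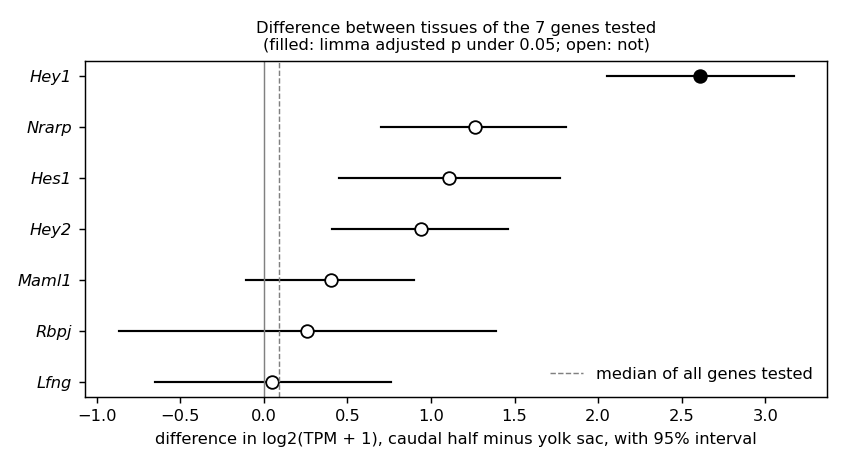
Difference in log2(TPM + 1), caudal minus yolk sac, of the 7 members tested, with 95% intervals from limma (n = 3 libraries per tissue). Hey1 at 2.61 is the filled point that passed, and the intervals of Maml1, Rbpj and Lfng cross 0.

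Within a tissue the levels, scaled for length, had a partly shared order. In the caudal cells the mean TPM ran from Rbpj (22.9) through Maml1 (12.67), Nrarp (9.21), Hey1 (7.91), Hes1 (5.71), Lfng (2.52) and Hey2 (1.87) to Heyl. Neighbours from Rbpj down to Hes1 overlapped in their libraries, whereas Hes1, Lfng, Hey2 and Heyl were each separated from the next. In the yolk sac Rbpj (19.45) and Maml1 (9.48) again led, overlapping one another. Nrarp (3.21), Lfng (2.58) and Hes1 (2.07) followed, each overlapping the next, and Hey2 (0.52) and Hey1 (0.48) overlapped below them. Hey1 was above Lfng in every caudal library and below it in every yolk sac library.

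Yolk sac replicate 1 was the highest yolk sac library for 6 of the 8 genes (Hes1, Hey1, Hey2, Nrarp, Lfng and Maml1) and the lowest for Rbpj. Caudal replicate 1 was the highest caudal library for 4 of the 8 (Hes1, Hey1, Nrarp and Maml1).

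Endothelial markers were higher in sum in each caudal library than in any yolk sac library. All 10 genes of the endothelial marker list had positive differences and 1, Cdh5, passed (97.56 against 16.62 TPM, limma adjusted p = 0.0114). The list summed to 502.1 to 679.3 TPM in the caudal libraries and 155.6 to 327.2 TPM in the yolk sac libraries. In bulk samples, fewer cells of a type and less RNA per cell cannot be told apart. The part of endothelial RNA in the differences of the members was not tested. Set against that sum, Hey1 was at 1.33, 1.44 and 1.27 TPM per 100 TPM of the list in the caudal replicates and 0.25, 0.14 and 0.13 in the yolk sac replicates, so its groups stayed apart. Nrarp was at 1.36 to 1.74 and 1.09 to 1.83 on the same ratio, Hes1 at 0.84 to 1.16 and 0.77 to 0.91, and Hey2 at 0.27 to 0.35 and 0.078 to 0.3, and the groups of these 3 genes overlapped. The overlap of each came from yolk sac replicate 2 alone (1.83 for Nrarp, 0.91 for Hes1 and 0.3 for Hey2). That library had the high endoderm sum and also the lowest sum of the endothelial list (155.6 TPM). Its TPM of Nrarp (2.85) and Hes1 (1.42) was the lowest among the yolk sac libraries. Why its ratios were high was not tested. The other yolk sac libraries lay below every caudal library for these 3 genes, closely so for Hey2 (0.26 in yolk sac replicate 1 against 0.27 in caudal replicate 1). Lfng and Maml1 had higher ratios in the yolk sac without overlap, at 0.65 to 1.31 against 0.34 to 0.54 and at 3.36 to 4.72 against 1.97 to 2.53. The list sum was lower in every yolk sac library, so a gene at equal TPM in both tissues has a higher ratio there. How many of all genes separate on this ratio was not counted.

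**Figure D3:**
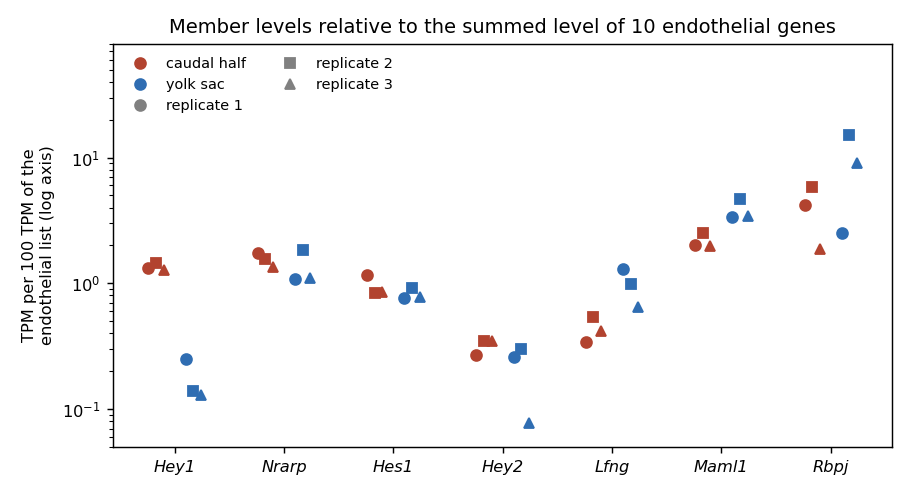
TPM of 7 members per 100 TPM of the summed endothelial list (vertical log axis) in each caudal (red) and yolk sac (blue) library, with symbols for the replicate. Hey1 lies at 1.27 to 1.44 in the caudal cells and 0.13 to 0.25 in the yolk sac, while the groups of Nrarp, Hes1 and Hey2 overlap through yolk sac replicate 2 alone.

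Markers of somite and neural tube, tissues in which Hes and Hey genes are also active, were near 0. Of 8 somite and neural tube genes, Msgn1, Myf5 and Sox1 were listed at 0 in all 6 libraries, 7 were below 1 TPM in all libraries, and the list summed to 0.28 to 1.57 TPM in the caudal and 0.64 to 0.89 TPM in the yolk sac libraries. Of 9 smooth muscle and mesenchyme genes, 3 were tested and 1, Acta2 (smooth muscle actin), passed toward the caudal cells. That list summed to 37.84 to 45.86 TPM against 4.32 to 5.61 TPM. Acta2 alone gave a mean of 32.84 and 1.6 TPM. Tagln, also higher in the caudal cells, was at 5.01 and 1.08 TPM and did not pass (limma adjusted p = 0.09). Pdgfrb was at 1.09 and 1.02 TPM (adjusted p = 0.967). Myh11, a marker of mature smooth muscle, was at 0.09 and 0.059 TPM. The part of smooth muscle and mesenchyme RNA in the differences of the members was not tested. Macrophage genes (16.82 to 25.2 against 19.05 to 23.85 TPM) and megakaryocyte genes (44.67 to 58.15 against 28.3 to 72.65 TPM) overlapped in their sums. Primitive erythroid genes summed to 1470.6 TPM in yolk sac replicate 2 and to 5.26 to 16.37 TPM in the other libraries.

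The other genes of the pathway comprised 86 genes in 7 lists, also chosen with earlier results known, of which 65 were tested. Of these, 5 passed toward the caudal cells (Dll4, Notch3, Notch4, Gja5 and Sox18) and 0 toward the yolk sac, 48 had positive differences and the median was 0.29, beside 0.09 over all genes tested, of which 62% were positive. At an unadjusted p under 0.05, limma had 15 of them, in either direction, beside 9.63% of all genes tested. Whichever single library was left out, Gja5 passed, Dll4 passed only without caudal replicate 2 or yolk sac replicate 2, and Notch3, Notch4 and Sox18 did not pass. Groups did not overlap for 17 of the 65 with caudal higher and 0 with yolk sac higher, beside 11.5% and 4.14% of all genes tested.

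Receptors and ligands held 3 of the 5 genes that passed. Dll4, an arterial ligand, was at 8.36, 4.7 and 6.46 TPM in the caudal replicates and 0.91, 0.54 and 0.5 TPM in the yolk sac replicates (limma adjusted p = 0.0199), and Notch3 had group means of 7.15 and 0.82 TPM (adjusted p = 0.032). Notch4, an endothelial receptor, had means of 2.35 and 0.31 TPM (adjusted p = 0.0482). Each was tested wholly or mainly through the caudal libraries. Exons of Dll4 and Notch3 overlap those of Gm14207 and Gm17276 on the opposite strand, as those of Gja5 do with Gpr89, so part of their reads may belong to the other gene.

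Among 17 other genes reported as Notch targets, Gja5 and Sox18 passed, and the median over the 14 tested was 0.69. Gja5, an arterial connexin gene, was at 14.01, 12.47 and 8.74 TPM in the caudal replicates and 0.076, 0.062 and 0.042 TPM in the yolk sac replicates, with a log2 difference of 3.56 (limma adjusted p = 0.00309). No yolk sac library reached 1 TPM, so Gja5 entered the test through the caudal libraries alone. Sox18, an endothelial transcription factor gene, had means of 10.69 and 2.42 TPM (adjusted p = 0.0482).

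No gene passed among those for receptor cleavage, nuclear cofactors or turnover. The 8 tested genes of receptor cleavage had a median difference of -0.09, and 0 of them passed. Adam17, which sheds the outer part of the receptor, was at 25.42 and 32.53 TPM (limma adjusted p = 0.655). Among 21 tested coactivators and corepressors the median was 0.21 and 0 passed. Tle3, a corepressor that Hes proteins recruit, was at 18.21 and 11.12 TPM (adjusted p = 0.473), and Maml2, a relative of Maml1, at 3.31 and 0.64 TPM (adjusted p = 0.527). The mean of Maml2 rested on caudal replicate 1 at 7.42 TPM, with the other caudal libraries at 1.27 and 1.24 TPM. Among 8 tested ubiquitin ligases and trafficking genes the median was 0.41 and 0 passed, with Dtx3 at 8.1 and 4.83 TPM (adjusted p = 0.515) and Itch at 18.87 and 10.1 TPM (adjusted p = 0.542).

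**Figure D4:**
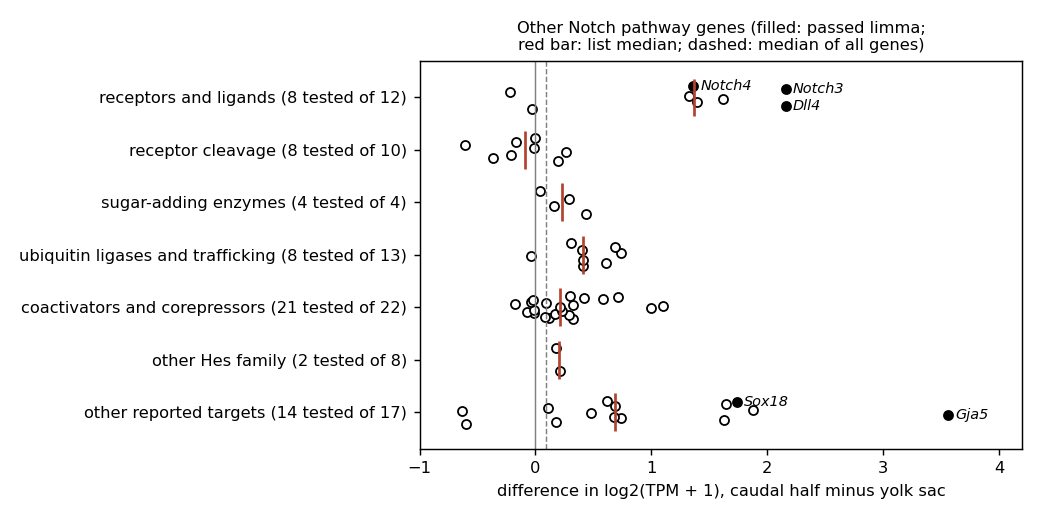
Difference in log2(TPM + 1), caudal minus yolk sac, of the 65 other pathway genes tested, 1 point per gene in 7 lists, with filled points for genes that passed limma, a red bar at each list's median and a dashed line at the median of all genes (0.09). The list medians are 1.37 for receptors and ligands, 0.69 for other targets and between -0.09 and 0.41 for the rest.

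Genes with the most similar profile over the 6 libraries were taken for each tested member, as the 3 with the highest Pearson correlation of log2(TPM + 1). These correlations rest on 6 points and are the highest among 8597 or 8598 genes, so they describe likeness only. Genes picked for likeness to a member that separates the tissues will tend to separate them too, so their adjusted p is not a separate result. For Hey1 they were the fibrillin genes Fbn2 (r = 0.999) and Fbn1 (0.998) and Tcp11l1 (0.996), which were at 14.52 against 1.13, 6.41 against 0.39 and 7.12 against 1.26 TPM in caudal and yolk sac means and passed limma (adjusted p of 0.00815, 0.0114 and 0.0231). For Nrarp they were Sema3g (r = 0.999), a semaphorin gene, Nrep (0.997) and Emsy (0.996). Sema3g was at 5.5 against 0.35 TPM and Nrep at 15.2 against 2.46 TPM (adjusted p of 0.0234 and 0.0353), and Emsy, at 33.2 against 15.54 TPM, did not pass (adjusted p = 0.0747). For Hes1 they were Rab10os, Zfp729a and Tpm4 (r of 0.995 to 0.997), and for Hey2 Ulk2, Adrm1 and Nadk2 (0.97 to 0.986). For Rbpj they were Sucla2, Mir7048 and Prr13 (0.99 to 0.998), for Lfng Itgam, Ulk1 and Son (0.978 to 0.989) and for Maml1 Smo, Pcdhga7 and Trove2 (0.997 to 0.999), with limma adjusted p from 0.442 to 0.949 over these 9 genes.

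Coordinates of the members, from GENCODE M21 on GRCm38, the assembly also called mm10, are as follows. Hey1 lies on chromosome 3 from 8663359 to 8667256 and Hey2 on chromosome 10 from 30832359 to 30842801. Heyl lies on chromosome 4 from 123233556 to 123249875 and Hes1 on chromosome 16 from 30064384 to 30067796. Nrarp, a gene of 1 exon, lies on chromosome 2 from 25180758 to 25183339. Rbpj (53466152 to 53657362) and Lfng (140607320 to 140615545) lie on chromosome 5, and Maml1 on chromosome 11 from 50255634 to 50292311.

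Hey1 passed in 10 of 15 alternatives, with adjusted p between 0.000394 and 0.138 and differences between 1.24 (pseudocount of 5) and 3.93 (pseudocount of 0.1). Nrarp and Hey2 passed in 1 of 15, and Hes1, Rbpj, Lfng and Maml1 in none of theirs.

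**Figure D5:**
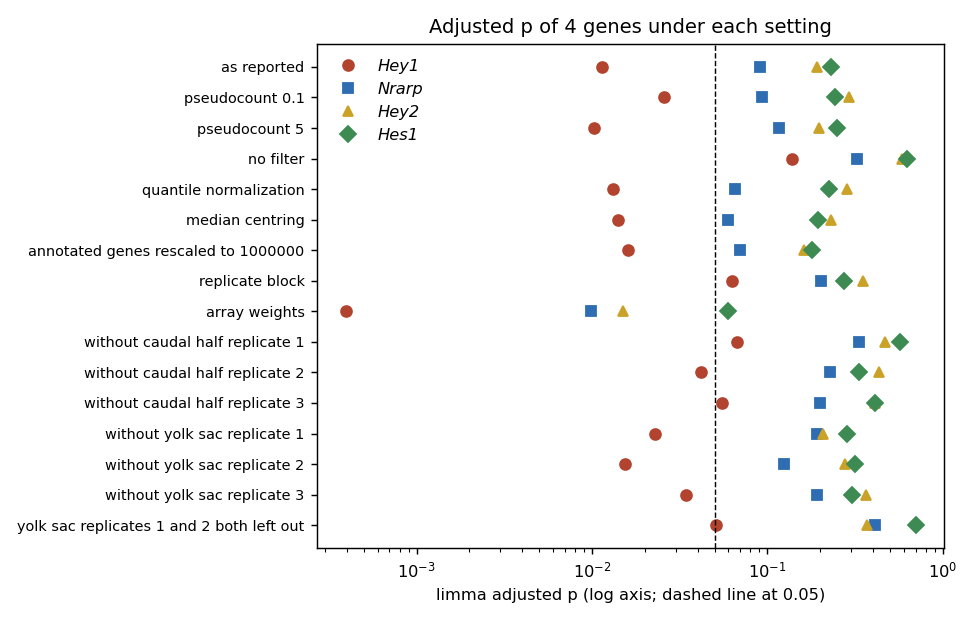
Limma adjusted p (horizontal log axis, dashed line at 0.05) of Hey1, Nrarp, Hey2 and Hes1 as reported and under 15 alternative settings (vertical axis). Hey1 ranges from 0.000394 with array weights to 0.138 with no filter, and Nrarp and Hey2 lie left of the line with array weights alone.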

How the data were processed

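RNA of sorted cells was measured in 6 libraries, 3 per tissue, grouped by the tissue label. HISAT2, StringTie and mm10 are named per the submitters' processing notes. Their versions, the annotation release and the strand setting were not given in the sources used here. The authors deposited 1 table per library headed TPM, per the file headers, handled here as a signal scaled in each library, because assembled loci alone sum to 1000000 and annotated genes add 555230 to 684549. Annotated (ENSMUSG) rows, 47643 gene IDs, were kept, 27 IDs with date-like symbols were restored by ID, and TPM was summed per symbol.

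Tissues were compared on log2(TPM + 1) with limma 3.58.1 (R 4.3.3, linear model, empirical Bayes with trend, two-sided, Benjamini-Hochberg over all genes) for the 16436 genes that reached 1 TPM in 3 or more of 6 libraries, with a threshold of 0.05. Fold changes on that scale understate those of weakly expressed genes. The fit was tested on simulated data with independent normal noise. These held no library that stood apart as yolk sac replicate 2 does, so they cannot show how the fit handles one. The members and lists were chosen with earlier results of these data known. Named pathway genes are all that passed and the 2 with the smallest p in each list, of which 1 is not reported here. The untested Hes family genes, Tagln, Pdgfrb and Myh11 are named outside that rule, after their values were seen. Similar profiles were sought among genes whose higher group mean was 5 TPM or more, leaving out models without a descriptive symbol. Alternatives were 2 other pseudocounts, 2 filters, 3 scalings, a replicate block, array weights, each library left out and yolk sac replicates 1 and 2 left out together.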

Additional observations from a re-analysis of the deposited data

How the results depend on the processing

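Among 16436 genes, 57 were higher and 6 lower in the caudal cells by limma, with 1583 at an unadjusted p under 0.05. Counts of genes higher and lower, of members called and of other pathway genes called toward the caudal cells (5 as reported) were as follows. With a pseudocount of 5 they were 37, 2, 1 and 2. With no filter they were 1, 0, 0 and 0 (2556 genes, 4 members and 15 pathway genes at an unadjusted p under 0.05), and with a mean of at least 10 TPM, which left 7346 genes and not Hey1, they were 8, 0, 0 and 0 (559, 0 and 5 unadjusted). With array weights (4.44 for caudal replicate 2, 3.24 for yolk sac replicate 3 and 0.227 to 0.83 for the others) they were 774, 182, 3 (Hey1, Hey2 and Nrarp) and 13, with 1 pathway gene, Ccnd1, toward the yolk sac. With yolk sac replicates 1 and 2 both left out, where the remaining yolk sac library is assumed to vary like the caudal ones, they were 13, 0, 0 and 1. Leaving out 1 library at a time gave 2 to 55 higher, 0 to 6 lower, 0 to 1 members and 1 to 2 pathway genes. Hey1 was not called without caudal replicate 1 or 3, and Gja5 was called whichever library was left out.

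Deviations of same-numbered libraries from their tissue mean correlated at 0.019, -0.021 and -0.003, and caudal replicate 2 correlated best with yolk sac replicate 3 (0.034). These values cannot decide whether same-numbered libraries were paired, because each tissue has only 3 libraries and the labels do not say. With the replicate block limma called 0 genes higher and 0 lower, 0 members and 0 pathway genes, with 1611 genes and 4 members at an unadjusted p under 0.05, and the adjusted p of Hey1 was 0.0627.

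Differences of Hes1, Hey1, Hey2, Nrarp and Maml1 kept their sign under every alternative in which they were tested. The difference of Lfng was -0.13 with quantile normalization and -0.04 with median centring, and leaving out 1 library gave -0.16 to 0.38. The difference of Rbpj was -0.33 with yolk sac replicates 1 and 2 both left out, and leaving out 1 library gave -0.24 to 0.7. Except where stated, the cause was not tested. Unknown depth and 100 cells per library limit what can be said of Heyl and of Hey1 and Hey2 in the yolk sac.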
